A study of Mus musculus with 6 samples.

Results

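miR-143 and miR-145a are microRNAs (miRNAs, short RNAs that silence messenger RNAs) of mural cells, the smooth muscle cells and pericytes that wrap blood vessels. Their 4 mature arms on the array, mmu-miR-143-3p, mmu-miR-143-5p, mmu-miR-145a-5p and mmu-miR-145a-3p, were matched by name among 1881 mouse miRNAs. The set was chosen with earlier results of these data known, and 2 of the 4 arms could be tested. The samples were left ventricles of male C57BL/6 mice, 3 given vehicle (control) and 3 given sunitinib, each measured on 1 Agilent array with 200 ng of total RNA. The sources used here give no dose, length of treatment or age. They do not state that every sample is a separate animal either, so the p-values describe the spread between samples, which may be technical. The title of the series concerns miR-146a in hearts that fail to work properly under sunitinib. This cancer drug is a kinase inhibitor that blocks the receptors for platelet-derived growth factor (PDGF) and vascular endothelial growth factor.

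Both miRNAs are cut from a single primary transcript. Of each hairpin, 1 arm is the abundant guide strand, miR-143-3p and miR-145a-5p, and the opposite arm is mostly degraded. In vascular smooth muscle the serum response factor and myocardin switch the pair on, and the pair keeps cells contractile by repressing transcription factors such as KLF4 and ELK1. PDGF signalling, which pericytes and smooth muscle cells need for recruitment and growth, is known to lower both miRNAs in cultured smooth muscle cells.

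The files place all 4 arms on chromosome 18 of mouse build mm9. The brightest probe of miR-143-3p maps to positions 61808895 to 61808909 and that of miR-145a-5p to 61807494 to 61807507, so the probes start 1401 bases apart. The probe of miR-143-5p maps to 61808862 to 61808875 and that of miR-145a-3p to 61807527 to 61807546. In the RefSeq gene table of assembly GRCm38.p6 both miRNA genes lie within the span of Carmn, a long noncoding RNA gene known from smooth muscle and heart. The next protein-coding gene in the table's order is Il17b, which encodes a cytokine.

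All 6 arrays were on 1 slide, none had a saturated spot, and 234 to 252 miRNAs per array were well above background. "Well above background" is the scanner software's own mark, and a probe carries it here where at least 50% of its spots do. Testing required this mark for the brightest probe of a miRNA on the 3 arrays of either group, which 237 of 1881 met. Values are log2 intensities after each array was scaled, and a level is never compared between probes because each probe binds with its own strength. Sunitinib replicates 1 and 2 were in slide row 1, and sunitinib replicate 3 shared row 2 with all controls. The 6 cardiac muscle miRNAs fixed as tissue markers, among them miR-1a-3p and miR-133a-3p, were well above background on every array.

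Of the 4 arms, both guide strands were measured on all 6 arrays and neither passed an adjusted p of 0.05. The mean of miR-145a-5p was 1.17-fold lower in sunitinib hearts and that of miR-143-3p 1.05-fold lower, and neither difference was called. miR-143-5p was well above background on 1 of 6 arrays and miR-145a-3p on 0 of 6, so these arms were not tested. Over the 237 tested miRNAs, 4 passed as higher (1.69%) and 4 as lower (1.69%), and 0 of 2 tested arms does not stand apart from that share. Without adjustment, 25 higher and 20 lower miRNAs had a limma p under 0.05, and miR-145a-5p was 1 of the 20. In whole ventricle, fewer mural cells and less of a miRNA per cell cannot be told apart.

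mmu-miR-143-3p, the guide arm of miR-143, had log2 signals of 9.10, 9.05 and 9.22 in control replicates 1 to 3. In sunitinib replicates 1 to 3 the signals were 9.10, 9.07 and 9.01. The groups overlapped, with control replicate 3 the highest array and sunitinib replicate 3 the lowest. The control mean was 9.12 ± 0.085 and the sunitinib mean 9.06 ± 0.047 (SD, n = 3 each). Their difference of -0.066 on the log2 scale (SE 0.069) was not called (limma adjusted p = 0.646), and its 95% interval ran from -0.23 to 0.10. On the linear scale that interval spans 0.851 to 1.07 times the control level.

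mmu-miR-145a-5p, the guide arm of miR-145a, had log2 signals of 6.998, 6.87 and 7.07 in control replicates 1 to 3. In sunitinib replicates 1 to 3 the signals were 6.67, 6.81 and 6.78. Every sunitinib array lay below every control array, the nearest being sunitinib replicate 2 and control replicate 2. Among the 237 tested miRNAs, 22 had all sunitinib arrays below all control arrays (9.28%). The control mean was 6.98 ± 0.10 and the sunitinib mean 6.75 ± 0.071 (SD, n = 3 each). The log2 change was -0.23 (SE 0.078), with an unadjusted 95% interval from -0.41 to -0.039, or 0.750 to 0.974 times the control level. It ranked 28 of 237 by p-value and did not pass (limma adjusted p = 0.211).

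**Figure D1:**
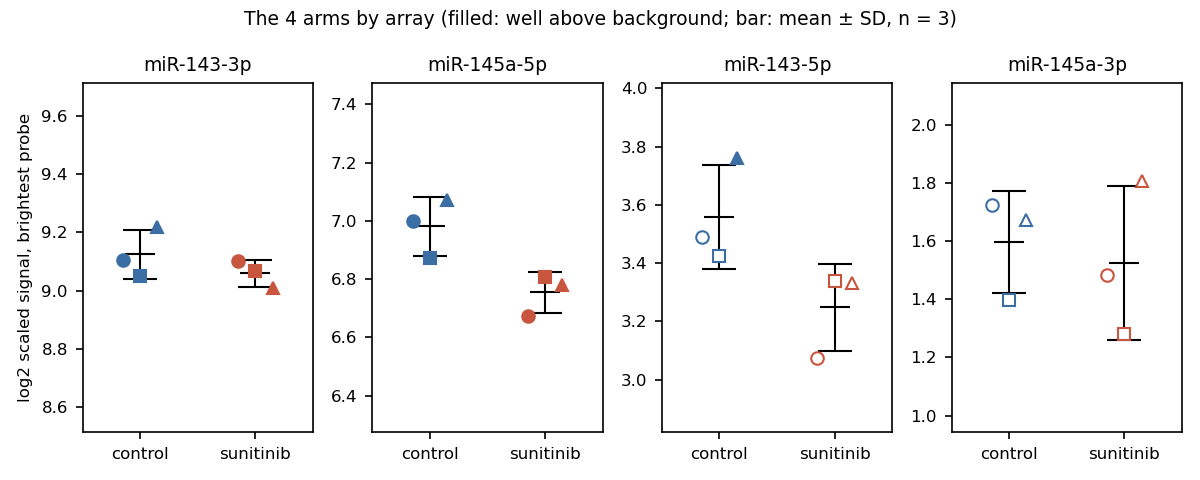
Log2 scaled signal of the brightest probe of each of the 4 arms on every array (circle, square and triangle: replicates 1, 2 and 3), with the group mean ± SD (n = 3); filled points are well above background. miR-143-3p overlapped between groups, miR-145a-5p lay between 6.67 and 6.81 in sunitinib and between 6.87 and 7.07 in control, and the other arms were mostly not well above background.

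The slide positions moved with the groups, and their part in these changes was not tested. Within slide row 2, where 1 sunitinib array sat beside 3 controls, the change was -0.20 for miR-145a-5p and -0.12 for miR-143-3p. These within-row values rest on that 1 sunitinib array. Fitting the row as a block draws on the same arrays and gave the same changes, with limma adjusted p = 0.749 for miR-145a-5p and 0.778 for miR-143-3p.

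Each guide arm has 2 probes of different length, both well above background on all 6 arrays. The mapped stretch of the shorter probe lies within that of the longer, and both read the same RNA. Their agreement is thus not independent evidence. The brighter miR-145a-5p probe, of 14 bases, changed by -0.23, while the dimmer, of 13 bases, changed by -0.12. On the dimmer probe the control signals were 6.24, 6.15 and 6.32 and the sunitinib signals 6.05, 6.19 and 6.10. Both probes pointed down, but on the dimmer one sunitinib replicate 2 exceeded control replicate 2 and the groups overlapped. The miR-143-3p probes, of 16 and 15 bases, changed by -0.066 and -0.0064. The dimmer probe read 8.450, 8.388 and 8.643 in control and 8.504, 8.506 and 8.452 in sunitinib. Every sunitinib array stood above control replicates 1 and 2 but below control replicate 3, so its small change below 0 rests on control replicate 3. Spots of a probe on the same array had a median SD of 0.083 for the brighter miR-143-3p probe and 0.103 for the brighter miR-145a-5p probe. Each array value is a mean over 14 or 15 such spots, so the error of that mean is smaller than the SD of single spots.

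**Figure D2:**
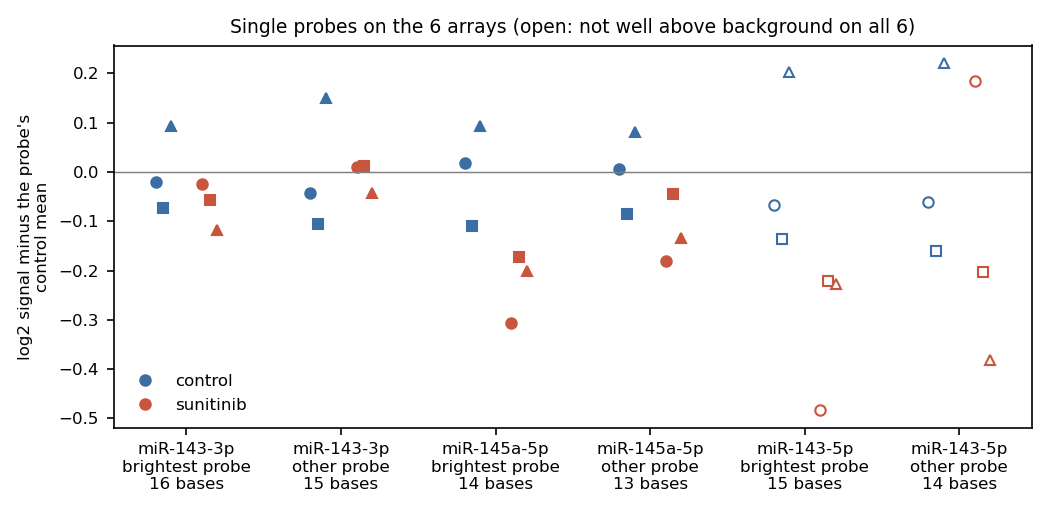
Log2 signal of each probe of miR-143-3p, miR-145a-5p and miR-143-5p on each array, minus that probe's control mean (circle, square and triangle: replicates 1, 2 and 3; open: not well above background on all 6 arrays). The dimmer miR-145a-5p probe shifted by -0.12 against -0.23 for the brighter one, and the miR-143-3p probes shifted by -0.066 and -0.0064.

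Because the arms come from 1 transcript, their difference on the same array was compared between groups, and the array's scaling cancels in it. The log2 signal of miR-145a-5p minus that of miR-143-3p was -2.11, -2.18 and -2.14 in control replicates 1 to 3. It was -2.43, -2.26 and -2.23 in sunitinib replicates 1 to 3. On these brightest probes the sunitinib arrays were all lower, sunitinib replicate 1 by the widest margin. On the dimmer probes of the 2 arms sunitinib replicate 2 lay above control replicate 3, so the groups overlapped. The share of other miRNA pairs whose difference separates the groups is not given here. The group means were -2.14 ± 0.037 and -2.30 ± 0.11 (SD, n = 3 each), a difference of -0.16. An exact two-sided permutation test gave p = 0.1, the smallest that 3 against 3 samples allow, so this design cannot reach 0.05 whatever the values. The difference was -0.099 without sunitinib replicate 1, -0.084 within slide row 2 and -0.11 on the dimmer probes. Over 18 processing alternatives it ran from -0.20 without sunitinib replicate 3 to -0.083 with normexp background correction.

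mmu-miR-143-5p, the minor arm of miR-143, had log2 signals of 3.49, 3.42 and 3.76 in control replicates 1 to 3. In sunitinib replicates 1 to 3 the signals were 3.08, 3.34 and 3.33. Only control replicate 3 was well above background, with 53.3% of its spots marked, and the lowest array had 7.14% marked. The measured means were 3.56 ± 0.18 and 3.25 ± 0.15 (SD, n = 3 each). No fold is given, since neither group was well above background throughout. The second probe of this arm was not well above background on any array.

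mmu-miR-145a-3p, the minor arm of miR-145a, was not well above background with any of its 4 probes on any array. Its brightest probe read 1.72, 1.40 and 1.67 in control and 1.48, 1.28 and 1.81 in sunitinib, with the groups overlapping. The measured differences of its 4 probes ran from -0.68 to 0.39, with both signs among them. miR-145b, a separate mouse miRNA of a similar name, was also not well above background on any array.

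The scanner files also carry a summed signal per miRNA, and for miR-143-5p it was far above the signal of its probes. On the linear scale its summed signal was 213.9, 194.3 and 184.6 on the control arrays, in replicate order. On the sunitinib arrays it was 219.5, 175.8 and 183.5. The sum of its own 2 probes, with negative signals taken as 0, was only 1.99 to 2.79 on the 6 arrays. The summed signal of miR-143-3p on the same arrays was 211.2, 191.8 and 182.0, then 217.4, 173.8 and 181.3. On each array the summed signal of miR-143-5p exceeded that of miR-143-3p by the signal of the brightest miR-143-5p probe, to within 0.00075. For miR-143-3p and miR-145a-5p the summed signal equalled the sum of their own probes to within 0.0009. The software marked miR-143-5p as detected on all 6 arrays. In the authors' deposited table miR-143-5p was at 2.96, 2.84 and 3.06 in control and 2.94, 2.82 and 2.81 in sunitinib on the log2 scale.

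**Figure D3:**
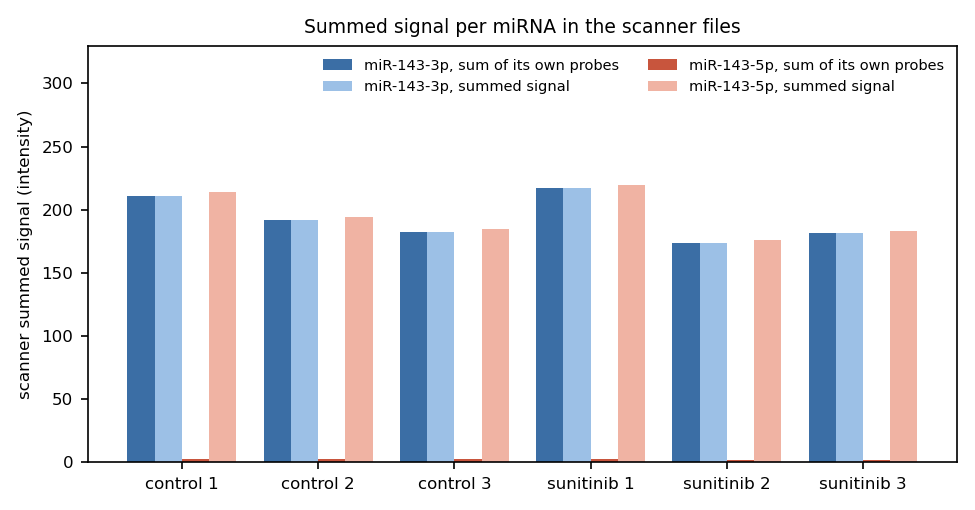
Scanner summed signal (linear intensity, bars from 0) and the sum of the miRNA's own probes for miR-143-3p and miR-143-5p on the 6 arrays. The miR-143-5p probes add up to 1.99 to 2.79, yet its summed signal sits just above that of miR-143-3p on each array.

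The deposited log2 values gave the guide arms the same order of groups. They come from the same 6 arrays, so they are not independent evidence. miR-145a-5p was at 6.70, 6.54 and 6.72 in control and 6.40, 6.52 and 6.46 in sunitinib in the authors' deposited table, without overlap. The share of tested miRNAs that separate the groups there is not given. miR-143-3p was at 8.82, 8.73 and 8.94 in control and 8.83, 8.80 and 8.74 in sunitinib in that table, overlapping. The differences in group means were -0.19 and -0.038, and limma on the deposited values left both short of the threshold (limma adjusted p = 0.223 for miR-145a-5p).

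Over the 6 arrays miR-143-3p and miR-145a-5p had a Pearson r of 0.66 and a Spearman rho of 0.60, as a description, with the array and its scaling in common. With each group's mean taken off, r was 0.50, since the difference between groups enters the value over all arrays. The miRNAs most like miR-145a-5p among the tested were miR-5100 (r = 0.93), miR-425-5p (0.88), miR-690 (0.88), miR-3968 (0.87) and miR-652-5p (0.86). Within groups these r values were 0.80 for miR-5100, 0.62 for miR-425-5p, 0.67 for miR-690, 0.79 for miR-3968 and 0.67 for miR-652-5p, all lower than over the 6 arrays and in another order. miR-143-3p ranked 35 in likeness to miR-145a-5p. The miRNAs most like miR-143-3p were miR-193a-3p (r = 0.90), miR-652-5p (0.82), miR-378c (0.77), miR-100-5p (0.71) and miR-5100 (0.69), with miR-145a-5p at rank 7. Within groups they were 0.92 for miR-193a-3p, 0.76 for miR-652-5p, 0.71 for miR-378c, 0.71 for miR-100-5p and 0.56 for miR-5100. Between the 2 sets of neighbours miR-652-5p and miR-5100 recurred. None of these miRNAs passed, and their log2 changes ran from -0.44 for miR-5100 to -0.0094 for miR-100-5p. They were picked by r over all 6 arrays, group difference included, so the shared sign is not independent of the choice.

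A list of 14 further miRNAs known from PDGF signalling or from switches of smooth muscle phenotype had 13 tested members, of which 0 rose and 0 fell by limma. Over all 237 tested miRNAs 4 rose and 4 fell (1.69% each), so 0 of 13 does not stand apart. The median log2 change of the list was 0.062, against 0.019 over all tested miRNAs. Of the 13, 8 were above 0, against 125 of all 237 tested miRNAs, so this count does not stand apart. miR-221-3p and miR-222-3p, which promote smooth muscle growth and are induced by PDGF, had changes of 0.049 (SE 0.15) and -0.15 (SE 0.091). miR-24-3p, which PDGF induces in smooth muscle, had 0.067 and miR-21a-5p, raised in injured vessel walls, had -0.19. miR-26a-5p, which acts in smooth muscle differentiation, had 0.19 and miR-146a-5p, which promotes smooth muscle growth and is the miRNA of the study's title, had -1.02 (SE 0.25, limma adjusted p = 0.0929). As the study's own choice on these samples it is no independent evidence of a direction. miR-322-5p had 0.18, miR-10a-5p 0.19, miR-29b-3p 0.18, miR-195a-5p 0.085 and miR-31-5p 0.062. miR-132-3p, released by pericytes, had -0.35 (SE 0.19) and miR-204-5p -0.093. The list was thus split in sign, and its lowest member, miR-146a-5p, had the widest spread among controls, with an SD of 0.52.

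Markers of the other cell types of the ventricle were read beside the guide arms. Both endothelial arms, miR-126a-3p at -0.019 and miR-126a-5p at -0.18, did not pass. Of 5 cardiac fibroblast miRNAs 3 were tested and none passed, with -0.084 for miR-199a-3p, -0.071 for miR-199a-5p and -0.084 for miR-214-3p. Of 6 cardiac muscle miRNAs none passed, with a median of 0.061 and a range from -0.010 to 1.25. Values were 0.056 for miR-1a-3p, 0.11 for miR-133a-3p, 0.065 for miR-133b-3p and -0.010 for miR-208a-3p. The upper end, 1.25, was miR-208b-3p (SE 0.53, limma adjusted p = 0.263), whose groups overlapped. Of 5 tested white blood cell miRNAs 2 fell, against 4 of all 237 tested miRNAs (1.69%). The list was chosen with earlier results of these data known, so this count is no independent evidence. The 2 were miR-223-3p of neutrophils, by 1.32 on the log2 scale (limma adjusted p = 0.00086), and miR-142a-3p of blood cells in general, by 0.64 (limma adjusted p = 0.020). The other 3 white blood cell miRNAs did not pass, with 0.35 for miR-150-5p, 0.15 for miR-155-5p and -0.0053 for miR-342-3p. Of 4 red blood cell miRNAs none passed, and their changes ran from -0.10 to 0.32. Endothelial, fibroblast and guide-arm values were all below 0, while 125 of all 237 tested miRNAs were above 0, so a value below 0 was common. Some of these values were within 1 SE of 0, such as miR-126a-3p (SE 0.065) and miR-143-3p (SE 0.069). The part that cell composition has in the guide-arm values was not tested.

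**Figure D4:**
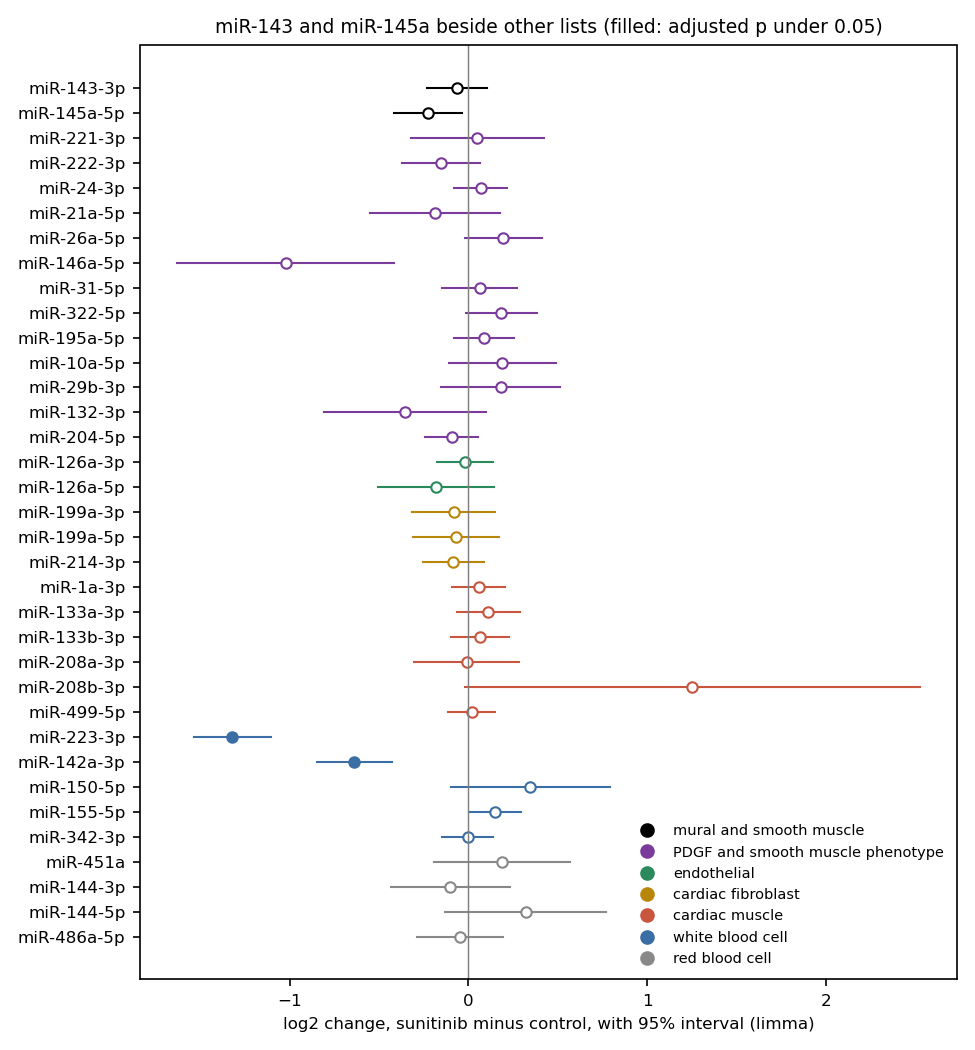
Log2 change in sunitinib against control with its 95% interval from limma for the guide arms and for the tested members of the other lists (filled: adjusted p under 0.05). The interval of miR-143-3p spans 0, that of miR-145a-5p runs from -0.41 to -0.039, and only miR-223-3p and miR-142a-3p are filled.

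Both guide arms stayed short of the threshold under each of the 22 processing alternatives, and their changes were below 0 in all of them. The alternatives of the filter, the floor, the variance model and the replicate block leave these changes as reported. The sign could therefore not differ there, and only the others bear on it. The change of miR-145a-5p ran from -0.28 without control replicate 2 to -0.12 on its second probe, with limma adjusted p from 0.160 to 0.803. The change of miR-143-3p ran from -0.12 with the slide row as a block to -0.0064 on its second probe, with limma adjusted p from 0.433 to 0.977. Normexp background correction, which adds an offset to every signal, gave -0.14 for miR-145a-5p.

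**Figure D5:**
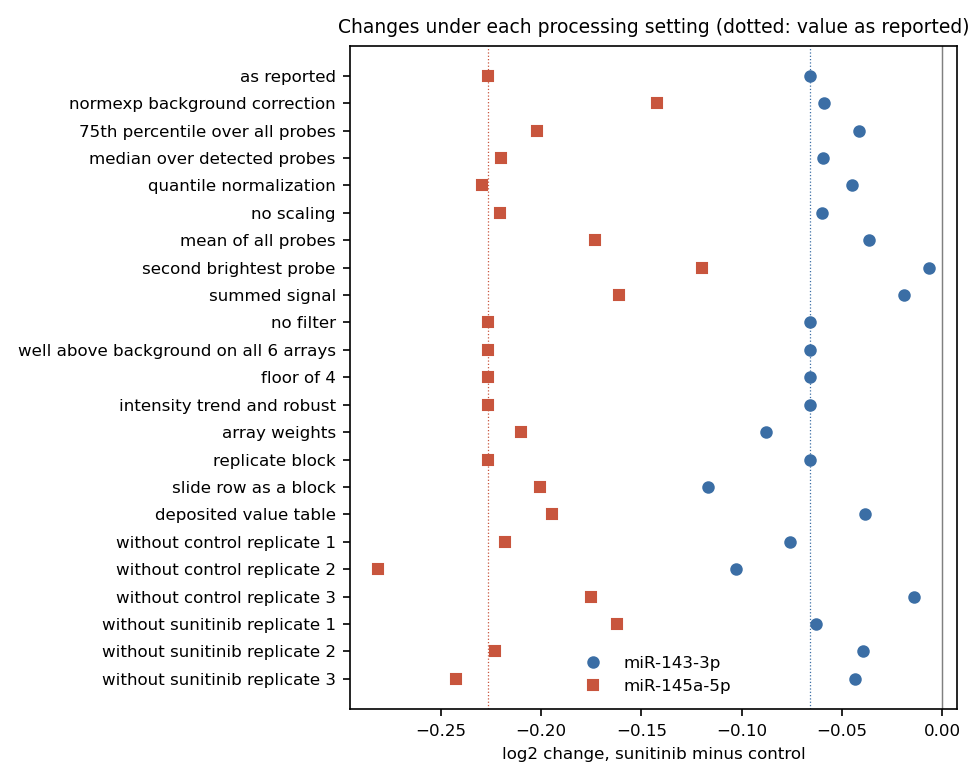
Log2 change of miR-143-3p (circles) and miR-145a-5p (squares) under each processing setting and with each sample left out (dotted lines: the values as reported). All values lie below 0, from -0.28 to -0.12 for miR-145a-5p and from -0.12 to -0.0064 for miR-143-3p. The settings of filter, floor, variance model and replicate block repeat the values as reported.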

How the data were processed

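Spot intensity came from the deposited scanner files, background-subtracted by Agilent Feature Extraction, version 10.7.1.1 per the file headers (10.7 per the submitters' processing notes), with build mm9. The summed signal per miRNA is the same software's intensity. The authors' deposited table holds log2 values, and the sources used here do not state how they were scaled or centred; each column matched its own array best (Pearson r across miRNAs of deviations from the other arrays, 0.919 to 0.954), and the column medians ran from 2.195 to 2.200. It served as an alternative.

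Control spots and outlier-flagged spots were left out. Each array was divided by a factor aligning the 75th percentile of 393 probes, those well above background throughout. Values under 1 were set to 1, log2 was taken and spots of a probe were averaged; the brightest probe stood for its miRNA. Changes were tested across all 237 tested miRNAs with limma 3.58.1 in R 4.3.3 (lmFit, eBayes, Benjamini-Hochberg). The fit was tested on simulated data. The number of arrays limits the precision.

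Named were the 4 arms, the 5 tested miRNAs with the highest Pearson r with each guide arm, all tested members of the PDGF list and the first 4 of each other list. miR-342-3p, the fifth white blood cell member, completes its list, and miR-208b-3p is named as the upper end of the cardiac muscle range. Members and lists were chosen with earlier results of these data known. Alternatives changed the scaling, background correction, choice of probe, dim-probe filter, floor, variance model, weights or blocks, took the deposited table, or tried leaving out each sample, where scaling and filter were redone.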

Additional observations from a re-analysis of the deposited data

How the results depend on the processing

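No alternative was added later. Against 4 higher and 4 lower miRNAs as reported, normexp called 2 and 2, and the summed signal 1 and 1. The higher count was 1 without scaling, 0 with quantile normalization (28 at an unadjusted limma p under 0.05) and 0 without a filter (72 unadjusted). Averaging a miRNA's probes called 7 as lower, and so did array weights, 7. A slide row block called 0 higher (9 unadjusted) and 1 lower. With single samples left out, 0 to 12 were higher and 2 to 5 lower. The 0 came without each control array (17 to 19 unadjusted, with 2 lower each time), 1 without sunitinib replicate 1 and 12 without sunitinib replicate 2. With the replicate block the counts were 0 (17 unadjusted) and 2, and miR-145a-5p kept -0.23 (limma adjusted p = 0.347). Same-numbered samples correlated at 0.18, 0.22 and -0.055 in their deviations, and 3 of 6 samples matched their own number best, so the numbers were not taken to pair samples. Neither guide arm passed in any of the 22 alternatives. The measured difference of miR-143-5p, -0.31, was -0.024 with normexp, -0.13 on the second probe, -0.022 with the summed signal and -0.095 in the deposited table. That of miR-145a-3p, -0.074, was 0.37 on the second probe and 0.21 under a slide row block. The cause was not tested, except that the summed signal of miR-143-5p moved with that of miR-143-3p.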

Other observations

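The mismatch between summed signal and own probes seen for miR-143-5p was looked for in all miRNAs after it was seen. The software marked 288 to 309 miRNAs per array as detected, and in 75 to 89 of these the summed signal exceeded 1.5 times the sum of their own probes. For 48 miRNAs that was so on all 6 arrays. In 2 of the 48, miR-143-5p and miR-490-5p, the excess lay within 5% of the other arm's summed signal on every array. For the other 46 the source of the excess was not identified.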
